A study of Homo sapiens with 9 samples.

Results

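The NRF2 axis was followed as 9 genes of the count table, chosen by their names with earlier results of these data known: the transcription factor NRF2 (gene NFE2L2), its inhibitor KEAP1, and the antioxidant enzymes HMOX1, NQO1, TXNRD1, GCLC, GCLM, SRXN1 and PRDX1. These are 9 of the 59050 gene symbols in the table. A CPM (the read count of a gene scaled to a common library size, here with TMM factors) above 1 in at least 3 samples was reached by 8 of the 9, as by 13463 genes in all, and SRXN1 stayed under that level.

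MEC1, an established human cell line of chronic lymphocytic leukemia (CLL), was grown in 3 conditions with 3 samples each: conventional 2D culture (2D), and cells bioprinted in a hydrogel scaffold and harvested at day 7 (3D_7d) or day 14 (3D_14d). RNA came from the scaffolds by TRIzol, DNase I and then a column, and from the 2D cells by the column kit alone. Culture and extraction therefore cannot be told apart in any comparison with 2D, while both 3D time points were extracted alike. The labels give no harvest day for the 2D samples, so time in culture cannot be told apart there either. Libraries were prepared from 2 ng of RNA with a SMART-Seq protocol, and the reads counted in genes numbered from 54662799 to 85968686 per library. All samples come from 1 cell line, and nothing in the labels says that the replicates were separate cultures, so the p-values measure the spread between these samples, which may be technical.

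NRF2 is the main activator of antioxidant and detoxifying genes in animal cells. In unstressed cells KEAP1 holds NRF2 and presents it to a CUL3 ubiquitin ligase for degradation, whereas oxidants and electrophiles modify cysteines of KEAP1, so that NRF2 accumulates, pairs with a small MAF protein and binds the antioxidant response element (ARE) near its target genes, from which BACH1 and BACH2 are displaced. Because this control acts on the protein, the mRNA of NFE2L2 is not a measure of NRF2 activity.

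The ARE core is short, and it is shown here because it is the DNA element through which the axis is defined. The core was searched as TGACNNNGC on both strands in the RefSeq promoter windows (assembly GRCh38.p14, 250 bases before to 50 after a start site), of which 10 belong to 7 of the 9 genes. Windows of GCLM, TXNRD1 and KEAP1 held the core, in 4 of the 10 windows, against 13.3% of all 35116 windows. The 6 matches are printed on the strand of the gene, with the core in capitals and 10 bases on each side.
GCLM, chr1:93909446-93909474, minus strand: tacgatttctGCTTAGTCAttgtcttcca
TXNRD1, chr12:104215670-104215698, plus strand: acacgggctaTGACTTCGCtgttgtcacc
TXNRD1, chr12:104215761-104215789, plus strand: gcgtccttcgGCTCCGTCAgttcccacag
TXNRD1, chr12:104286920-104286948, plus strand: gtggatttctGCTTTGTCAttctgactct
KEAP1, chr19:10502807-10502835, minus strand: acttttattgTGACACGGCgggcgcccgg
KEAP1, chr19:10502784-10502812, minus strand: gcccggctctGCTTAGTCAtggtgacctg
In lines with GC at the start of the capitals the core reads on the opposite strand, as TGACTAAGC in GCLM and in the second match of KEAP1. The GCLM match began 34 bases before the start site. The windows of NFE2L2, GCLC, NQO1 and SRXN1 did not contain these letters, and HMOX1 and PRDX1 were not searched. The looser core TGANNNNGC, held by 41.8% of all windows, had 1 match in the window of NQO1 and 2 in a window of NFE2L2. Elements outside these windows were not searched, so a gene without a match may still have an ARE. A match of letters is a description and not a bound site.

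The cells carried the markers of their label. All 5 B-cell markers counted (CD79A, CD79B, MS4A1, PAX5 and CD22) were above 1 CPM, with a sum of 2055 to 2122 CPM in 2D, 2351 to 2929 at 3D_7d and 3033 to 3282 at 3D_14d, although CD22 was lower in 3D, at 213 to 404 CPM against 527 to 561 CPM in 2D. None of 6 T-cell and none of 6 myeloid markers was above 1 CPM in any group mean, and the sum of either list stayed at or under 1.65 CPM in every library. Of 6 stromal and endothelial markers only COL1A1 and PECAM1 passed 1 CPM, and the sum of that list was 19.4 to 23.8 CPM in 2D, 37.8 to 54.5 at 3D_7d and 50.7 to 79.0 at 3D_14d. PECAM1 made up the rise of that sum, with 12.6 to 15.8 CPM in 2D and 34.5 to 77.3 CPM in 3D, while COL1A1 was at 6.72 to 7.36 CPM in 2D and 1.48 to 4.73 CPM in 3D. The 3D_14d libraries differed more among themselves than those of the other groups. The chi-square statistic per gene was 155 to 306 between pairs of 3D_14d libraries against 22.5 to 82.0 elsewhere. Values that lean on 3D_14d replicate 1 are in part pointed out below, but not for every gene of the lists. In bulk RNA, fewer cells that express a gene and less RNA of it per cell cannot be told apart.

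Across the 3 comparisons, the factor and its inhibitor changed in opposite directions at day 7, and the enzymes differed in which of them passed the test and when. In 3D_7d vs 2D, KEAP1, NQO1, TXNRD1 and GCLC were up-regulated and NFE2L2 was down-regulated, which is 5 of the 8 tested genes, at a threshold of 0.05 for the adjusted p of edgeR's quasi-likelihood test, where 43.4% of all tested genes passed it (22.2% up and 21.2% down). In 3D_14d vs 2D, NQO1 and HMOX1 were up-regulated and NFE2L2 was down-regulated, 3 of 8, beside 36.2% of all tested genes (19.0% up and 17.2% down). In 3D_14d vs 3D_7d only TXNRD1 passed, with a decrease, 1 of 8, beside 28.1% of all tested genes (14.5% up and 13.6% down). No member passed upward in that last edgeR comparison, where GCLM alone had an unadjusted p under 0.05 and was called by the Wald test of DESeq2. The shares of members called were thus 62.5%, 37.5% and 12.5%, beside the 43.4%, 36.2% and 28.1% above. They rest on 8 genes chosen with earlier results of these data known, and 1 gene makes 12.5%. Upward calls in 3D_7d vs 2D numbered from 3 to 6 over the alternatives, so no excess or deficit is read from these shares.

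The median log2 fold change of the 8 genes was 0.45 in 3D_7d vs 2D, 0.34 in 3D_14d vs 2D and -0.14 in 3D_14d vs 3D_7d, beside -0.0039, 0.023 and -0.0012 for all tested genes. Both comparisons with 2D use the same 2D samples, so that their values are set side by side without a measure of their likeness. The values of 2D and 3D_7d did not overlap for 7 of the 8 tested genes, as for 64.6% of all tested genes, and those of 2D and 3D_14d did not overlap for 5 of 8, as for 49.7%. Between 3D_14d and 3D_7d the values did not overlap for 4 of 8, as for 39.3%.

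**Figure D1:**
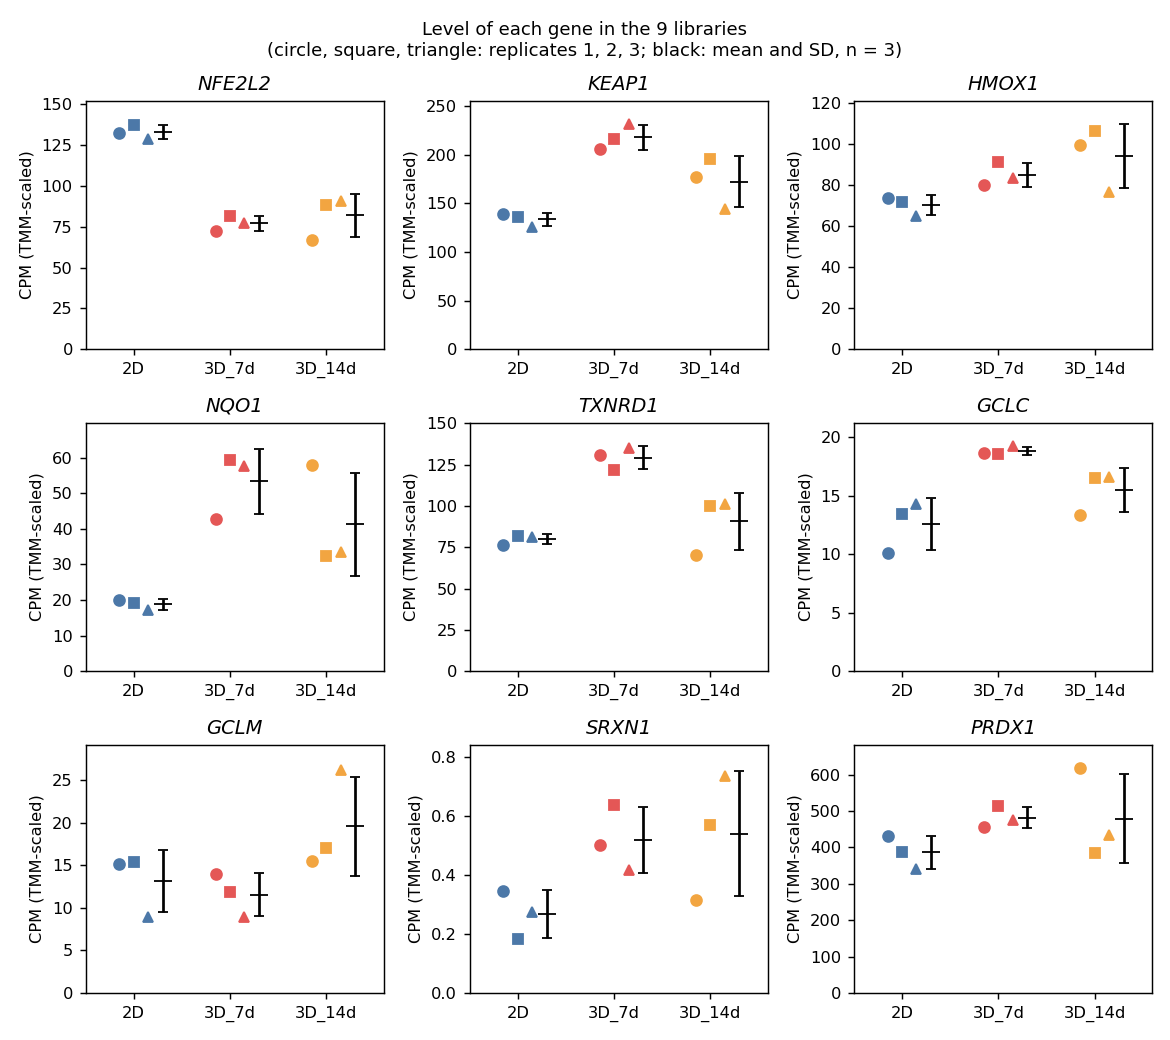
Level of each of the 9 genes in each library, in CPM scaled with TMM factors (vertical axes, each starting at 0), by culture condition (horizontal axes); circles, squares and triangles are replicates 1, 2 and 3, and the black marks are the mean and SD of 3 samples. NFE2L2 lay at 129 to 137 CPM in 2D and under 91 CPM in every 3D library, while NQO1 lay under 21 CPM in 2D and above 32 CPM in every 3D library.

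NFE2L2 (chr2:177230305-177392697, minus strand, GRCh38), which encodes NRF2 itself, was lower in both 3D conditions. Its level was 133, 137 and 129 CPM in 2D, 72.3, 81.8 and 77.1 CPM at 3D_7d, and 67.0, 88.5 and 90.5 CPM at 3D_14d. Every 3D library was under every 2D library, and the time points overlapped. The log2 fold change was -0.79 ± 0.15 (SE, n = 3 per group; edgeR adjusted p = 0.00095) in 3D_7d vs 2D, a level 1.73 times lower. In 3D_14d vs 2D it was -0.70 ± 0.14 (adjusted p = 0.0028), a level 1.62 times lower. Between 3D_14d and 3D_7d the difference of 0.09 ± 0.14 did not pass (adjusted p = 0.67). Both calls against 2D were made under all 18 alternatives. Of its exonic bases 16.5% lie in AC019080.1 and AC079305.1 too, which averaged under 1 CPM in each group.

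KEAP1 (chr19:10486125-10503356, minus strand), the adaptor that keeps NRF2 in check, was higher at 3D_7d. It measured 139, 136 and 126 CPM in 2D, 206, 216 and 231 CPM at 3D_7d, and 177, 196 and 144 CPM at 3D_14d. The 3 groups did not overlap, with 3D_14d between the other two, although its replicate 3 lay only a little above the 2D samples. The increase in 3D_7d vs 2D was 0.70 ± 0.14 on the log2 scale, or 1.63-fold (edgeR adjusted p = 0.0018), under all 18 alternatives as well. The log2 fold change in 3D_14d vs 2D was 0.37 ± 0.14, which did not pass (adjusted p = 0.062). Without 3D_14d replicate 3 it was 0.48 and passed (adjusted p = 0.012). The difference of -0.34 ± 0.14 between 3D_14d and 3D_7d did not pass (adjusted p = 0.093), and without 3D_14d replicate 2 it was -0.44 and did (adjusted p = 0.032).

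The ratio of inhibitor to factor within each library does not depend on the scaling between libraries. Counts of KEAP1 per kilobase of exon were 1.57, 1.47 and 1.46 times those of NFE2L2 in 2D, 4.25, 3.95 and 4.48 times at 3D_7d, and 3.94, 3.31 and 2.37 times at 3D_14d. The groups did not overlap, and the highest ratio at 3D_14d, in replicate 1, lay just under the lowest at 3D_7d. On the log2 scale the ratio differed from 2D by 1.49 at day 7 and by 1.07 at day 14. Each of the 3 comparisons had p = 0.10 in the exact two-sided permutation test, the smallest that 3 samples against 3 allow, and 0.18 after adjustment over the 9 ratio comparisons made.

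HMOX1 (chr22:35381096-35394207, plus strand) encodes heme oxygenase 1, the inducible enzyme that opens heme to biliverdin, iron and carbon monoxide. Its level was 73.9, 71.8 and 64.8 CPM in 2D, 80.2, 91.3 and 83.5 CPM at 3D_7d, and 99.7, 106 and 76.4 CPM at 3D_14d. All 3D libraries were above all 2D libraries, with 3D_14d replicate 3 the closest. The log2 fold change of 0.28 ± 0.15 in 3D_7d vs 2D did not pass (edgeR adjusted p = 0.15; 0.50 and 0.011 with the trend in gene length removed), and that of 0.42 ± 0.15 in 3D_14d vs 2D, 1.34-fold, passed (adjusted p = 0.042). This last call was lost in 12 of 18 alternatives, among them the removal of any 1 library except 3D_14d replicate 3, with values between 0.33 and 0.44. With library totals alone as the scaling it was 0.21 (adjusted p = 0.22).

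NQO1 (chr16:69706996-69726668, minus strand), a quinone reductase that works with NADH or NADPH and is a classical ARE target, had the largest fold changes of the 8 tested genes against 2D. It measured 20.1, 19.1 and 17.1 CPM in 2D, 42.9, 59.5 and 57.7 CPM at 3D_7d, and 58.1, 32.3 and 33.5 CPM at 3D_14d. The 3D libraries all lay above the 2D libraries, and 3D_14d replicate 1 was at the level of 3D_7d, well above the other 3D_14d libraries. The increase was 1.51 ± 0.23 on the log2 scale, 2.85-fold, in 3D_7d vs 2D (edgeR adjusted p = 0.00026). It was 1.14 ± 0.23, 2.20-fold, in 3D_14d vs 2D (adjusted p = 0.0021). Both calls were made under all 18 alternatives. From day 7 to day 14 the difference was -0.37 ± 0.22 (adjusted p = 0.23), and without 3D_14d replicate 1 it was -0.68 and passed (adjusted p = 0.0090). An antisense gene, AC092115.2, covers 20.2% of its exonic bases and had 0 counts in every library.

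**Figure D2:**
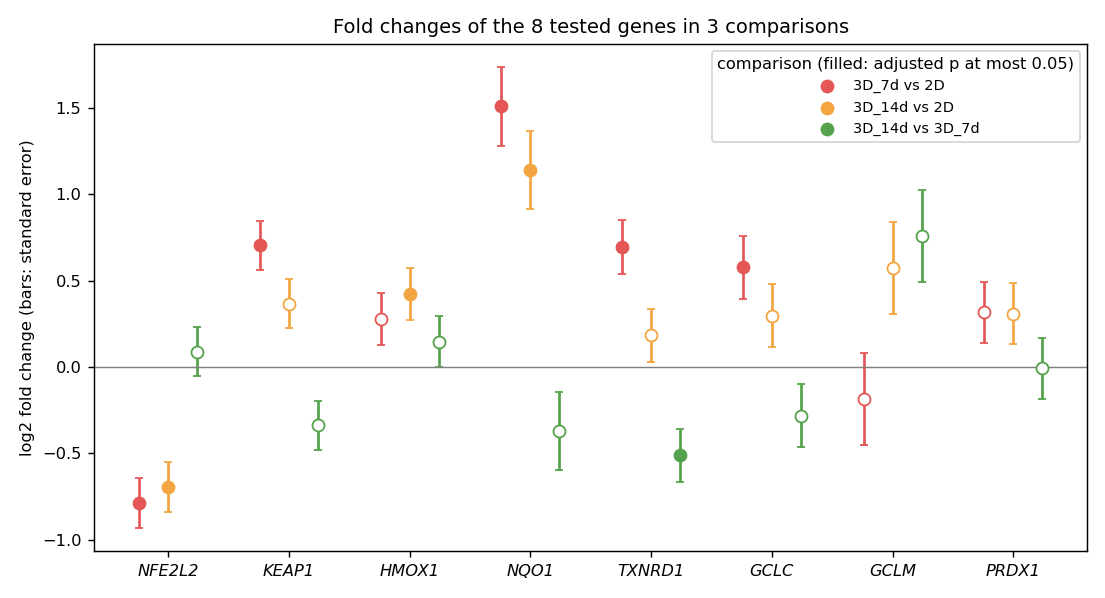
Log2 fold change (vertical axis) with its standard error (bars) of the 8 tested genes (horizontal axis) in the 3 comparisons, from the edgeR fit of all 9 samples; filled points had an adjusted p of at most 0.05. NQO1 stands highest, at 1.51 and 1.14 against 2D, NFE2L2 is the one gene below 0 with filled points against 2D, and TXNRD1 is the one with a filled point between the time points.

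GCLC and GCLM encode the catalytic and the modifier subunit of glutamate-cysteine ligase, which makes the first and limiting step of glutathione synthesis. GCLC (chr6:53497341-53548206, minus strand) measured 10.1, 13.4 and 14.3 CPM in 2D, 18.7, 18.5 and 19.2 CPM at 3D_7d, and 13.3, 16.5 and 16.6 CPM at 3D_14d. The 3D_7d libraries were the highest and nearly equal, and 2D and 3D_14d overlapped. The increase in 3D_7d vs 2D was 0.58 ± 0.18 on the log2 scale, 1.49-fold (edgeR adjusted p = 0.021). It was lost in 6 of 18 alternatives, to 0.42 with library totals alone as the scaling (adjusted p = 0.11) and to 0.40 without 2D replicate 1 (adjusted p = 0.14), and also, at 0.52 to 0.58, without 2D replicate 2, 3D_7d replicate 2 or 3D_7d replicate 3. The values of 0.30 ± 0.18 in 3D_14d vs 2D (adjusted p = 0.22) and -0.28 ± 0.18 in 3D_14d vs 3D_7d (adjusted p = 0.26) did not pass.

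GCLM (chr1:93885199-93909456, minus strand), unlike GCLC, did not pass in 3D_7d vs 2D. Its level was 15.1, 15.4 and 8.89 CPM in 2D, 13.9, 11.8 and 8.91 CPM at 3D_7d, and 15.5, 17.1 and 26.2 CPM at 3D_14d. The 2D and 3D_7d samples overlapped throughout, and the 3D_14d samples were above both, the lowest of them only just. No comparison passed: the log2 fold change was -0.18 ± 0.27 in 3D_7d vs 2D (edgeR adjusted p = 0.61), 0.57 ± 0.27 in 3D_14d vs 2D (adjusted p = 0.11) and 0.76 ± 0.27 in 3D_14d vs 3D_7d (adjusted p = 0.052). The last was past the threshold in 7 of 18 alternatives, among them 0.92 without 3D_14d replicate 1 (adjusted p = 0.024) and 0.78 without 2D replicate 3 (adjusted p = 0.035).

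The ratio of GCLM to GCLC per kilobase was 1.94, 1.49 and 0.807 in 2D, 0.966, 0.826 and 0.600 at 3D_7d, and 1.50, 1.33 and 2.04 at 3D_14d. Per kilobase of exon, GCLC was thus the higher in every 3D_7d library and GCLM in every 3D_14d library. This order rests on the exon lengths used, 6349 bases for GCLC and 4909 for GCLM, which may not be those of the expressed transcripts. The differences between groups do not depend on these lengths. The time points differed by 1.03 on the log2 scale without overlap (exact two-sided permutation test, p = 0.10, the smallest possible, and 0.18 after adjustment). The 2D samples spanned both orders, and neither time point differed from 2D beyond the spread (exact permutation p = 0.30 at day 7 and 0.60 at day 14).

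**Figure D3:**
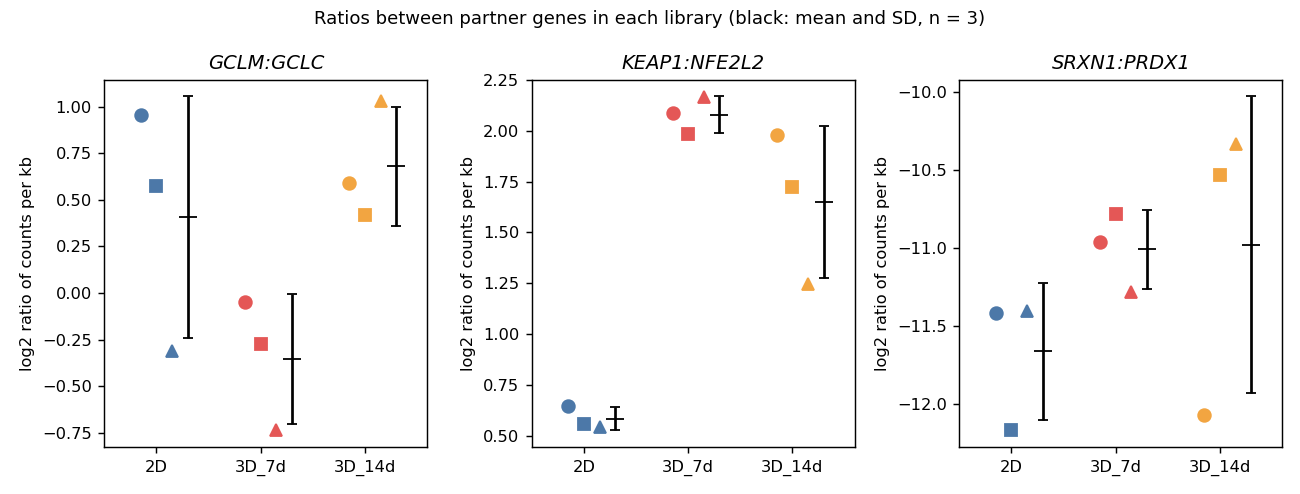
Log2 ratio of counts per kilobase (vertical axes) between partner genes in each library, by culture condition (horizontal axes); circles, squares and triangles are replicates 1, 2 and 3, and the black marks are the mean and SD of 3 samples. KEAP1:NFE2L2 lies at 0.55 to 0.65 in 2D and at 1.98 to 2.16 at 3D_7d, and GCLM:GCLC is negative in every 3D_7d library and positive in every 3D_14d library.

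TXNRD1 (chr12:104215779-104350307, plus strand) encodes the cytosolic thioredoxin reductase, a selenoprotein that recharges thioredoxin with NADPH. It measured 76.2, 81.9 and 81.3 CPM in 2D, 131, 122 and 135 CPM at 3D_7d, and 70.5, 100.1 and 101 CPM at 3D_14d. The 3D_7d libraries were above all others, and 3D_14d replicate 1 was under the 2D samples while the other 3D_14d libraries were above them. In 3D_7d vs 2D the increase was 0.69 ± 0.15 on the log2 scale, 1.62-fold (edgeR adjusted p = 0.0031), under all 18 alternatives too. The value of 0.18 ± 0.15 in 3D_14d vs 2D did not pass (adjusted p = 0.37). It was 0.34 and passed without 3D_14d replicate 1 (adjusted p = 0.027), and it was -0.0093 with library totals alone as the scaling. From 3D_7d to 3D_14d the level fell by 0.51 ± 0.15 on the log2 scale (adjusted p = 0.026), a call that 5 of 18 alternatives did not make, among them the removal of any 3D_7d library (adjusted p = 0.054 to 0.096).

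PRDX1 (chr1:45511036-45521938, minus strand), a peroxiredoxin that reduces peroxides with electrons from thioredoxin, had the highest level per length of the 9 genes. Its level in each library was 432, 386 and 342 CPM in 2D, 456, 513 and 475 CPM at 3D_7d, and 618, 385 and 434 CPM at 3D_14d. The 3D_7d samples lay above the 2D samples, and the 3D_14d samples spread over both groups, with replicate 1 the highest of all. No comparison passed, with log2 fold changes of 0.32 ± 0.18 in 3D_7d vs 2D (edgeR adjusted p = 0.16), 0.31 ± 0.18 in 3D_14d vs 2D (adjusted p = 0.19) and -0.01 ± 0.18 between the time points (adjusted p = 0.98). Without 3D_14d replicate 1 the value in 3D_14d vs 2D was 0.088 (adjusted p = 0.62). The gene is short, with 1234 exonic bases, and with a trend in gene length removed from each library the value in 3D_7d vs 2D was 0.61 and passed (adjusted p = 0.0019). Without 3D_14d replicate 1, which enters the common estimate of the spread, it was 0.30 and passed as well (adjusted p = 0.042). Of its exonic bases 30.7% are shared with MMACHC on the opposite strand, which averaged 2.86 to 4.36 CPM, and the strand setting of the read counting is not given in the sources used here.

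SRXN1 (chr20:646615-653370, minus strand), the sulfiredoxin that restores over-oxidized peroxiredoxins, had few reads in MEC1, between 17 and 41 per library. The level was 0.345, 0.183 and 0.275 CPM in 2D, 0.500, 0.637 and 0.417 CPM at 3D_7d, and 0.314, 0.569 and 0.735 CPM at 3D_14d. The 3D_7d libraries were above the 2D libraries and the 3D_14d libraries spanned both. With a looser filter that kept the gene (filterByExpr), its log2 fold change was 0.96 in 3D_7d vs 2D (edgeR adjusted p = 0.24) and 1.00 in 3D_14d vs 2D (adjusted p = 0.24), neither of which passed. Of its exonic bases 85.0% are shared with AL121758.1 on the same strand, which had at most 8 counts, and reads in the shared part cannot be assigned to one of them.

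Compared per kilobase of exon (RPKM), PRDX1 was the highest and SRXN1 the lowest of the 9 genes in every condition. In 2D the means were 313 ± 36 RPKM (SD, n = 3) for PRDX1, 48.3 ± 2.5 for KEAP1, 45.1 ± 3.1 for HMOX1, 32.2 ± 1.0 for NFE2L2, 15.8 ± 0.62 for TXNRD1, 6.60 ± 0.53 for NQO1, 2.68 ± 0.75 for GCLM, 1.98 ± 0.35 for GCLC and 0.099 ± 0.030 for SRXN1. KEAP1 and HMOX1, and GCLM and GCLC, overlapped in 2D, and the other neighbours did not. At 3D_7d NFE2L2 dropped from the fourth to the sixth place, with 18.7 ± 1.1 RPKM behind TXNRD1 at 25.6 ± 1.4 and beside NQO1 at 18.8 ± 3.2, from which it could not be separated. At 3D_14d NFE2L2 at 19.9 ± 3.2, TXNRD1 at 18.0 ± 3.5 and NQO1 at 14.5 ± 5.1 RPKM overlapped, as did KEAP1 at 62.3 ± 9.5 and HMOX1 at 60.6 ± 10.1. Together the 9 genes took 0.0875% to 0.108% of the counts of a library.

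The genes whose pattern over the 9 libraries was most like that of NFE2L2 were PXK, RAD21 and DTWD1, with a root mean square difference of 0.075 to 0.080 between centred log2 CPM values. For NQO1, the member with the widest range of group means, they were UFD1, PRADC1 and PSMD6, with a difference of 0.13 to 0.15. UFD1 and PSMD6 encode proteins of ubiquitin-dependent protein degradation. The mean of UFD1 was 51.5 CPM in 2D, 142 CPM at 3D_7d and 117 CPM at 3D_14d, and that of PSMD6 was 99.0, 260.0 and 226 CPM in the same order. These genes were taken from all 13463 for their likeness, so that nothing about their own changes is tested here.

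The wider antioxidant network was counted in 9 lists of 120 genes, of which 100 were tested. In 3D_7d vs 2D 19 of them were up-regulated and 21 down-regulated. The numbers were 21 and 13 in 3D_14d vs 2D, and in 3D_14d vs 3D_7d they were 25 and 17. The share called was 40.0%, 34.0% and 42.0% in turn, beside 43.4%, 36.2% and 28.1% of all tested genes. With a trend in gene length removed, 34 genes passed upward at day 7, and without 2D replicate 3 only 8 passed upward at day 14, against 10 without 2D replicate 2. The 3367 shortest tested genes (up to 2086 exonic bases) had a median log2 fold change of -0.19 in 3D_7d vs 2D and 0.32 in 3D_14d vs 3D_7d, while the 3366 longest (from 5480 bases) had -0.03 and -0.10, and the part of gene length in the results was not tested.

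**Figure D4:**
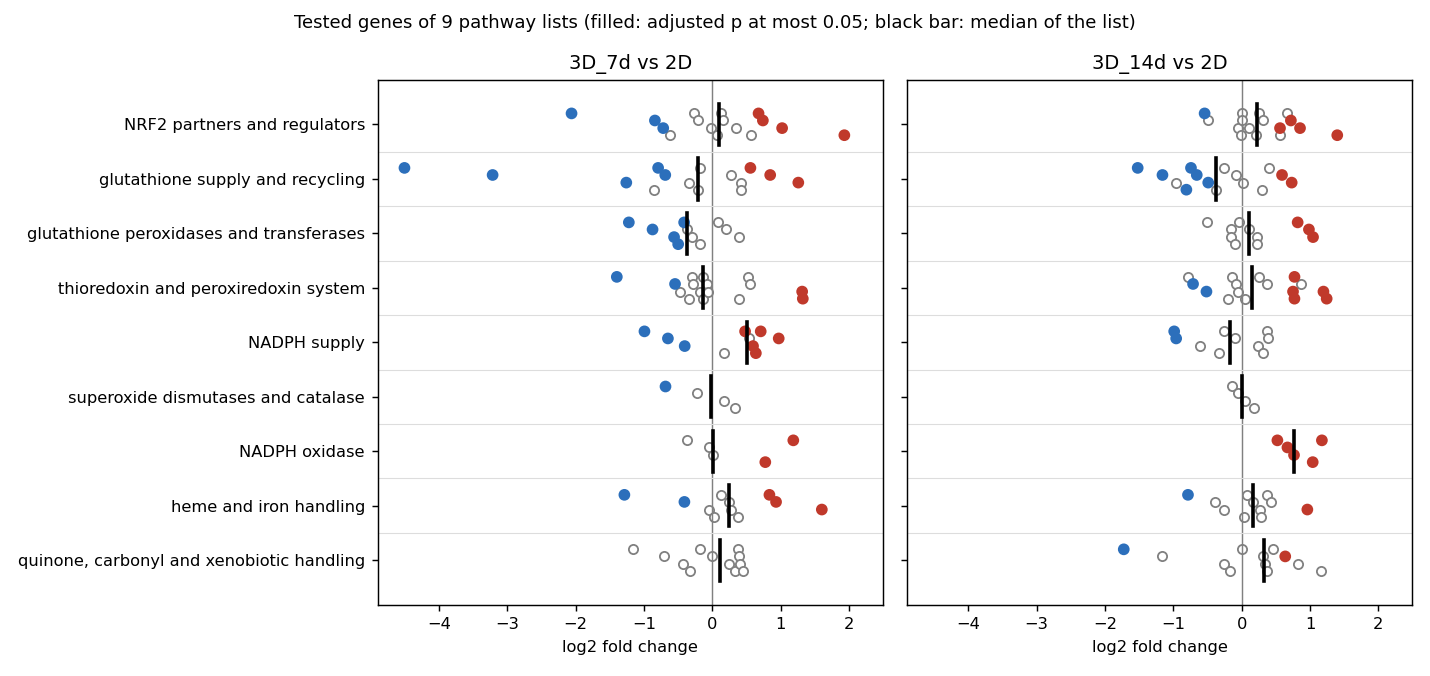
Log2 fold change (horizontal axes) of each tested gene of the 9 lists (vertical axis, points spread only for legibility) in 3D_7d vs 2D (left) and 3D_14d vs 2D (right); filled points, red above and blue below 0, had an adjusted p of at most 0.05, and black bars are the medians of the lists. CHAC1 and SLC7A11 are the leftmost points at day 7, at -4.51 and -3.22, and all 5 points of the NADPH oxidase list are filled and red at day 14.

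Among 16 tested partners and regulators of NRF2, 4 were up-regulated and 3 down-regulated in 3D_7d vs 2D. The numbers were 4 and 1 in 3D_14d vs 2D, and 5 and 3 in 3D_14d vs 3D_7d. Against 2D the share called was 43.75% at day 7 and 31.25% at day 14, beside 43.4% and 36.2% of all tested genes. Between the time points 8 of the 16 were called, beside 28.1% of all tested genes. Of the small MAF proteins, the partners with which NRF2 binds the ARE, MAFF and MAFG were lower at day 7. MAFF was at 3.95 to 6.50 CPM in 2D, 0.656 to 2.43 CPM at 3D_7d and 6.78 to 12.2 CPM at 3D_14d, and it fell by 2.06 ± 0.46 on the log2 scale at day 7 (edgeR adjusted p = 0.0031) and rose by 2.73 ± 0.47 from there to day 14 (adjusted p = 0.0016). MAFG fell by 0.72 ± 0.25 (adjusted p = 0.034) and rose by 1.29 ± 0.25 (adjusted p = 0.0034) in the same comparisons, the decrease being lost without 2D replicate 1 (-0.63), 3D_7d replicate 2 (-0.69) or 3D_7d replicate 3 (-0.61). MAFK, at 0.637 to 1.56 CPM in all libraries, did not pass in any comparison.

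The scaffold of the ligase that degrades NRF2, CUL3, measured 12.6 to 13.8 CPM in 2D, 12.1 to 26.1 CPM at 3D_7d and 25.7 to 48.1 CPM at 3D_14d. It rose by 1.40 ± 0.28 on the log2 scale in 3D_14d vs 2D (edgeR adjusted p = 0.0023). DPP3, a dipeptidyl peptidase that can occupy KEAP1, rose by 1.93 ± 0.15 in 3D_7d vs 2D (adjusted p = 4.4e-06), from 65.5 to 78.3 CPM in 2D to 258 to 302 CPM. In 3D_14d vs 2D DPP3 rose by 0.56 ± 0.15 (adjusted p = 0.0097). NFE2L3, a relative of NRF2, fell by 0.84 ± 0.16 at day 7 (adjusted p = 0.0012) and by 0.54 ± 0.16 at day 14 (adjusted p = 0.018). SQSTM1 (p62), the autophagy receptor that can sequester KEAP1, was at 519.7 to 551 CPM in 2D, 446 to 486 CPM at 3D_7d and 507 to 728 CPM at 3D_14d, and it passed only between the time points. Of the repressors, BACH1 was at 17.3 to 33.1 CPM and did not pass in any comparison, and BACH2, at 0.240 to 0.984 CPM, was under the filter. At day 14 the call of DPP3 was lost with library totals (0.36), no filter (0.51) or without 2D replicate 3 (0.46), and that of NFE2L3 without 2D replicate 1 (-0.55) or 2D replicate 2 (-0.51). Without 2D replicate 3 only 1 partner passed upward at day 14, and with library totals 2 did. Between the time points, upward calls numbered 2 without 3D_7d replicate 2 or 3D_7d replicate 3, and 3 without 2D replicate 2, 2D replicate 3, 3D_7d replicate 1 or 3D_14d replicate 3.

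Of 15 genes of glutathione supply and recycling, 3 were up-regulated and 5 down-regulated in 3D_7d vs 2D, 2 and 6 in 3D_14d vs 2D, and 4 and 4 between the time points. Each time 53.3% were called, beside 43.4%, 36.2% and 28.1% of all tested genes. The list medians were -0.21, -0.38 and -0.12. SLC7A11, the cystine carrier of system xc- and another known NRF2 target, was at 17.4 to 25.5 CPM in 2D, 1.33 to 3.75 CPM at 3D_7d and 6.71 to 13.5 CPM at 3D_14d. The groups did not overlap. Its log2 fold change was -3.22 ± 0.39 at day 7 (edgeR adjusted p = 6.4e-05) and -1.16 ± 0.36 at day 14 (adjusted p = 0.024), the latter lost without 2D replicate 3 (-1.02), 3D_14d replicate 1 (-0.97) or 3D_14d replicate 2 (-1.04). SLC7A11 and NQO1 thus changed in opposite directions at both time points.

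The glutathione-degrading enzymes CHAC1 and CHAC2 also went opposite ways at day 7. CHAC1, a target of the integrated stress response, was at 64.3 to 67.2 CPM in 2D, 2.57 to 3.39 CPM at 3D_7d and 31.2 to 53.0 CPM at 3D_14d. It fell by 4.51 ± 0.22 on the log2 scale at day 7 (edgeR adjusted p = 1.2e-07). In 3D_14d vs 2D its log2 fold change was -0.66 (adjusted p = 0.017), a call made under all 18 alternatives. CHAC2 rose by 1.26 ± 0.24 at day 7 (adjusted p = 0.0013), from 5.90 to 7.32 CPM in 2D to 13.0 to 18.7 CPM. GGCT, of the same list, fell by 0.79 ± 0.16 at day 7 (adjusted p = 0.0016) and by 1.52 ± 0.16 at day 14 (adjusted p = 3.4e-05). Of its exonic bases 27.7% are shared with AC005154.5 on the same strand. GSS, which completes glutathione, rose by 0.56 ± 0.15 at day 7 (adjusted p = 0.010), and HAGH, which frees glutathione from lactoylglutathione, rose by 0.73 ± 0.18 at day 14 (adjusted p = 0.0074). Glutathione reductase, GSR, was at 65.9 to 75.4 CPM in 2D, 86.5 to 101 CPM at 3D_7d and 49.0 to 78.3 CPM at 3D_14d, and passed neither comparison with 2D. The call of GSS at day 7 was lost without 2D replicate 1 (0.49), 2D replicate 3 (0.48) or 3D_7d replicate 3 (0.41), and that of HAGH without 2D replicate 3 (0.61). Without 2D replicate 3 the list had 0 calls upward and 4 downward at day 14, and without 2D replicate 2 it had 1 and 5. Between the time points 2 passed downward without 3D_7d replicate 2 or 3D_7d replicate 3.

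The glutathione peroxidases and transferases gave 0 up-regulated and 5 down-regulated of 11 tested genes in 3D_7d vs 2D, and 3 and 0 in 3D_14d vs 2D, where neither an unadjusted p under 0.05 nor the Wald test of DESeq2 added a gene to the 0. Between the time points, 5 were up-regulated, but 2 without 3D_7d replicate 2, and 3 without 2D replicate 2, 3D_7d replicate 1 or 3D_14d replicate 1. The list shares called were 45.5%, 27.3% and 45.5%, beside 43.4%, 36.2% and 28.1% of all tested genes. GSTP1, the pi-class transferase, was at 537 to 674 CPM in 2D, 238 to 265 CPM at 3D_7d and 467 to 749.9 CPM at 3D_14d, with a decrease of 1.22 ± 0.18 on the log2 scale at day 7 (edgeR adjusted p = 0.00023). MGST3, a membrane transferase, rose by 0.98 ± 0.21 in 3D_14d vs 2D (adjusted p = 0.0034), with 67.5 CPM in replicate 1 and 36.3 and 45.9 CPM in the others against 23.8 to 27.8 CPM in 2D. With the length trend removed the list had 2 calls upward and 2 downward at day 7. Leaving out any 2D or 3D_7d library left 1 to 3 down-regulated at day 7, and leaving out 2D replicate 2 or 2D replicate 3 left 1 up-regulated at day 14.

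In the thioredoxin and peroxiredoxin system, the calls in 3D_7d vs 2D were 2 up and 2 down of 16 tested genes, 5 and 2 in 3D_14d vs 2D, and 4 and 1 between the time points. As shares of the list these are 25.0%, 43.75% and 31.25%, beside 43.4%, 36.2% and 28.1% of all tested genes. TXNRD2, the mitochondrial counterpart of TXNRD1, rose by 1.31 ± 0.22 at day 7 (edgeR adjusted p = 0.00048) and by 1.20 ± 0.22 at day 14 (adjusted p = 0.0012), from 18.6 to 22.2 CPM in 2D to 49.2 to 53.9 and 30.3 to 60.8 CPM. SESN2, a stress-induced sestrin, fell by 1.40 ± 0.19 at day 7 (adjusted p = 0.00012) and by 0.71 ± 0.18 at day 14 (adjusted p = 0.0097). Thioredoxin itself, TXN, was at 334 to 453 CPM in 2D, 229.6 to 334 CPM at 3D_7d and 229 to 518 CPM at 3D_14d and did not pass in any comparison. Upward calls at day 14 numbered 3 without 3D_7d replicate 3, 2 without 3D_14d replicate 1 or 2D replicate 1 or with library totals, and 1 without 2D replicate 2 or 2D replicate 3. Without 3D_14d replicate 1, day 7 had 4 calls upward and 5 downward, and without 2D replicate 1 or 3D_7d replicate 3 it had 1 and 1. Between the time points, 1 gene passed upward and 0 downward without 3D_7d replicate 2.

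The other peroxiredoxins differed from one another. PRDX5 rose by 0.77 ± 0.22 on the log2 scale in 3D_14d vs 2D (edgeR adjusted p = 0.017), with 841 CPM in 3D_14d replicate 1 and 447 and 429 CPM in the others against 307 to 379.5 CPM in 2D. PRDX6 fell by 0.55 ± 0.18 at day 7 (adjusted p = 0.025) and by 0.52 ± 0.18 at day 14 (adjusted p = 0.037). Both calls were lost without 2D replicate 1, 2D replicate 2 or 3D_7d replicate 2. Leaving out 3D_7d replicate 3 lost the call at day 7, and leaving out 3D_14d replicate 2 or 3D_14d replicate 3 that at day 14 (-0.39 to -0.57 without 1 sample). The call at day 7 was also lost with the length trend removed (-0.35), and that at day 14 with filterByExpr (-0.52) or only the 6 samples (-0.53). The value of PRDX5 was 0.39 without 3D_14d replicate 1 (adjusted p = 0.022). The call of PRDX5 was lost without 2D replicate 2 (0.71) or 2D replicate 3 (0.68) and with only the 6 samples (0.76). PRDX2, at 206 to 371 CPM, and PRDX4, at 87.6 to 183 CPM over all libraries, did not pass in any comparison. PRDX3, the mitochondrial peroxiredoxin, was at 305 to 329 CPM in 2D, 365 to 442 CPM at 3D_7d and 256 to 341 CPM at 3D_14d and passed only between the time points.

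NADPH feeds TXNRD1, glutathione reductase and NQO1. Of 10 tested genes of NADPH supply, 5 were up-regulated and 3 down-regulated in 3D_7d vs 2D, a share of 80.0%, and 0 and 2 in 3D_14d vs 2D, where 1 gene had an unadjusted upward p under 0.05 and the Wald test of DESeq2 called 1. From 3D_7d to 3D_14d 6 were down-regulated. Calls thus covered 80.0%, 20.0% and 60.0% of these 10 genes, beside 43.4%, 36.2% and 28.1% of all tested genes. The list median was 0.51, -0.17 and -0.53. The NADP-dependent isocitrate dehydrogenases parted, since IDH1 of the cytosol rose by 0.71 ± 0.15 at day 7 (edgeR adjusted p = 0.0017) and IDH2 of the mitochondria fell by 0.99 ± 0.16 at day 7 (adjusted p = 0.00044) and by 0.96 ± 0.16 at day 14 (adjusted p = 0.00076). TKT, transketolase, fell by 0.40 ± 0.14 (adjusted p = 0.028) and 0.99 ± 0.14 (adjusted p = 0.00020) in the same order, the first of which was lost in 6 of 18 alternatives (-0.38 to -0.47), among them leaving out 2D replicate 1, 2D replicate 2, 3D_7d replicate 1 or 3D_7d replicate 2. Without 2D replicate 1 or 3D_7d replicate 1 the list had 4 calls upward and 1 downward at day 7. PGLS is not analysed here.

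The NADPH oxidase of phagocytes and B cells spends NADPH to form superoxide. In 3D_14d vs 2D all 5 genes counted for it (CYBA, CYBB, NCF1, NCF4 and RAC2) were up-regulated, with a median log2 fold change of 0.77, and in 3D_7d vs 2D 2 were. Of all tested genes, 19.0% passed upward at day 14 and 22.2% at day 7. The count of oxidase genes at day 14 was 3 with library totals as the scaling, 3 without 2D replicate 1 and 3 without 2D replicate 2. CYBB, the catalytic subunit, was at 14.5 to 16.9 CPM in 2D, 32.0 to 36.5 CPM at 3D_7d and 17.6 to 32.0 CPM at 3D_14d, and rose by 1.19 ± 0.21 (edgeR adjusted p = 0.00071) and 0.77 ± 0.21 (adjusted p = 0.012), the latter lost with library totals (0.58) or without 2D replicate 1 (0.70) or 2D replicate 2 (0.70). NCF1 rose by 0.78 ± 0.21 (adjusted p = 0.0086) and 1.04 ± 0.21 (adjusted p = 0.0020), but its copies NCF1B and NCF1C hold up to 8913 and 43950 counts in a library, and the way reads of such copies were shared out is not given in the sources used here. Of the superoxide dismutases, their chaperone CCS and catalase, CCS alone passed against 2D, falling by 0.69 ± 0.21 at day 7 (adjusted p = 0.011), a call lost with the length trend removed (-0.35).

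Around HMOX1, heme and iron handling counted 3 higher and 2 lower genes past the threshold out of 11 tested in 3D_7d vs 2D, 1 and 1 in 3D_14d vs 2D, and 2 and 3 between the time points. The list thus had 45.5%, 18.2% and 45.5% called, beside 43.4%, 36.2% and 28.1% of all tested genes. The constitutive heme oxygenase HMOX2 was at 77.4 to 93.9 CPM in 2D, 148 to 156 CPM at 3D_7d and 140.1 to 206 CPM at 3D_14d. It rose by 0.84 ± 0.15 (edgeR adjusted p = 0.0012) and 0.96 ± 0.16 (adjusted p = 0.00066), under all 18 alternatives. BLVRB, a biliverdin reductase, fell by 1.29 ± 0.22 at day 7 (adjusted p = 0.00070) and the transferrin receptor TFRC rose 3.04-fold (SE 0.25 on the log2 scale, adjusted p = 0.00029). FLVCR1, a heme exporter, fell by 0.79 ± 0.23 in 3D_14d vs 2D (adjusted p = 0.020), a call lost without 2D replicate 3 (-0.70) or 3D_14d replicate 2 (-0.63). Ferritin heavy chain, FTH1, fell by 0.41 ± 0.14 at day 7 (adjusted p = 0.032), a call lost in 9 of 18 alternatives, with -0.19 after removal of the length trend and with the removal of any 2D or 3D_7d library except 2D replicate 3, and FTL, at 4325 to 8494 CPM, did not pass. Of the exonic bases of FTH1, 57.6% are shared with BEST1 on the opposite strand. Without 3D_14d replicate 1 the list had 4 calls upward at day 14, without 3D_14d replicate 3 it had 3, and without 3D_7d replicate 3 only 1 gene passed downward between the time points.

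The other genes of quinone, carbonyl and xenobiotic handling gave few calls at day 7, when NQO1 rose. Against 2D 0% of them were called at day 7 and 16.7% at day 14, beside 43.4% and 36.2% of all tested genes. Between the time points it was 8.3% beside 28.1%. Of 12 tested, 0 passed in 3D_7d vs 2D by edgeR and 0 by the Wald test of DESeq2, with 1 at an unadjusted p under 0.05 in each direction, while 4 passed upward with the length trend removed and 3 without 3D_7d replicate 1 or 3D_14d replicate 1. In 3D_14d vs 2D, NQO2, the second quinone reductase, rose by 0.64 ± 0.18 on the log2 scale (edgeR adjusted p = 0.018), from 25.0 to 29.9 CPM to 37.7 to 51.4 CPM. TRIM16 fell by 1.73 ± 0.53 (adjusted p = 0.022) at 0.462 to 1.21 CPM against 1.86 to 3.21 CPM in 2D, with 35.7% of its exonic bases shared with other genes. The call of NQO2 was lost without 2D replicate 2 (0.62) or 2D replicate 3 (0.53) and with library totals (0.43), and that of TRIM16 without 2D replicate 2, 2D replicate 3, 3D_14d replicate 1 or 3D_14d replicate 3 (-1.46 to -1.74). Of the list, 7 genes were under the filter, among them the aldo-keto reductases AKR1C1, AKR1C2 and AKR1C3, which are strong NRF2 targets in epithelial cells.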

How the data were processed

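RNA of 9 MEC1 samples was analysed in 3 groups of 3 (2D, 3D_7d and 3D_14d), grouped by their labels. The authors sequenced single reads, trimmed them with Trimmomatic (version 0.39), aligned them to GRCh38 with the GENCODE release 31 annotation using STAR (version 2.5.3a) and assigned them to genes with featureCounts (version 1.6.4). The deposited values are raw counts per gene, without normalization, with each gene's exon coordinates and length. The strand setting and the treatment of reads with several alignments are not given in the sources used here.

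The expression filter asked for more than 1 CPM in 3 or more libraries, which kept 13463 of 51726 genes that had any count. In R (version 4.3.3), edgeR (version 4.0.16) computed TMM factors, fitted 1 model with a mean for each group and applied the quasi-likelihood test to 3 contrasts. Adjustment followed Benjamini and Hochberg over all genes kept, with a threshold of 0.05. RPKM is CPM per kilobase of exon. Ratios of partner genes were compared with exact two-sided permutation tests. The pipeline was tested on simulated counts. Per-sample totals were 54662799 to 85968686, and replicates differed beyond counting error, so that their spread set the precision.

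All members were named in every comparison. Of the other lists, the gene with the smallest p in each direction against 2D was named, with a preset group (the small MAF and BACH proteins, CUL3, SQSTM1, SLC7A11, GSS, GSR, TXN, the peroxiredoxins, FTH1 and FTL). The members and lists were chosen with earlier results of these data known, and some genes of the lists are not reported here. The alternatives were scaling by DESeq2's size factors or by library totals, DESeq2 (version 1.42.0) with its Wald test in place of edgeR, filterByExpr or no filter, fits of the 6 samples compared, a block for the replicate number, a loess trend with gene length removed (span 0.4), both together, and leaving out each sample.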

Additional observations from a re-analysis of the deposited data

Results flagged for a closer look

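For 24 of the named genes, the effect against 2D differed between day 14 and day 7 (edgeR, adjusted p of at most 0.05, log2 scale). The test of that difference is the comparison 3D_14d vs 3D_7d, in which 28.1% of all tested genes passed. Part of the named genes were chosen for a small p against 2D, in which the same 3D libraries entered, so no excess is read from this count. The effects at day 14 and day 7 share the 2D samples, and RNA extraction was the same at both time points. Among the members this was TXNRD1 alone, at -0.51.

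The level at day 14 was above that at day 7 for CHAC1 (3.85), MAFF (2.73), SLC7A11 (2.06), BLVRB (1.32), MAFG (1.29), GSTP1 (1.18), MGST3 (1.16), PRDX5 (0.91), CUL3 (0.83), CCS (0.74), SESN2 (0.69), FTH1 (0.58) and SQSTM1 (0.46). It was below for CHAC2 (-1.51), DPP3 (-1.37), TFRC (-1.33), FLVCR1 (-0.81), GGCT (-0.73), TKT (-0.58), GSS (-0.53), PRDX3 (-0.52), GSR (-0.51) and IDH1 (-0.48). GSR, SQSTM1 and CUL3 lost this call in 11, 10 and 8 of 18 alternatives, TXNRD1, FLVCR1 and IDH1 in 5, GSS and PRDX3 in 4, CCS and FTH1 in 3, and PRDX5 and SESN2 in 2. With the length trend removed, PRDX5 was at 0.38, CCS at 0.33 and FTH1 at 0.33, and none of the 3 passed. Of these 12 genes all except PRDX5 and FTH1 lost it when at least 1 of the 3D_7d replicates, taken in turn, was left out. Without 3D_14d replicate 1, PRDX5 was at 0.54 and passed, and GSR was at -0.31 and did not. CUL3 was at 0.51 without 3D_14d replicate 3. The exons of SQSTM1 overlap those of MRNIP on the opposite strand over 41.3% of their length.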

How the results depend on the processing

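The calls of NFE2L2 and NQO1 against 2D at both time points, and of KEAP1 and TXNRD1 at day 7, were made under all 18 alternatives. The cause of the changes below was not tested. Members up-regulated in 3D_14d vs 2D were 2, but 1 with library totals, filterByExpr, no filter or only the 6 samples, 4 with the length trend removed, and 1 to 3 when 1 sample was left out. In 3D_14d vs 3D_7d, members passing upward were 0, but 1 (GCLM) with DESeq2's size factors, its Wald test, no filter, or the length trend removed without or with the replicate block, and 0 to 1 when 1 sample was left out. Members down-regulated there were 1, but 2 with library totals or the length trend removed, 0 with no filter or only the 6 samples, and 0 to 2 when 1 sample was left out.

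Of the listed genes, 19 passed upward in 3D_7d vs 2D, but 29 with only the 6 samples, 34 with the length trend removed and 31 with the block as well. In 3D_14d vs 2D 21 passed upward, but 12 with library totals. In 3D_14d vs 3D_7d 17 passed downward, but 11 with only the 6 samples. Leaving out 1 sample gave 12 to 28 downward at day 7 (21 with all samples), 8 to 25 upward at day 14, and 14 to 28 upward (25) and 10 to 17 downward between the time points. Of all genes, 2557 passed upward in 3D_14d vs 2D, but 1604 with library totals and 1564 to 2845 when 1 sample was left out. In 3D_14d vs 3D_7d 1834 passed downward, but 1122 with only the 6 samples and 1092 to 2141 when 1 sample was left out, and 1951 upward became 1193 to 2187.

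Scaling by library totals moved the median of all genes to -0.16 in 3D_7d vs 2D and -0.18 in 3D_14d vs 2D, and TXNRD1 in 3D_14d vs 2D to -0.0093. PRDX1 in 3D_14d vs 3D_7d, at -0.01, turned to 0.0074 with DESeq2's size factors or Wald test, to 0.018 with only the 6 samples, and ranged from -0.22 to 0.13 when 1 sample was left out. HMOX1 in that comparison turned from 0.15 to -0.11 with the length trend removed and to -0.12 with the block as well. The GCLM:GCLC difference in 3D_14d vs 2D ranged from -0.085 to 0.55 when 1 sample was left out (0.27 with all), and that of SRXN1:PRDX1 in 3D_14d vs 3D_7d from -0.29 to 0.58 (0.03 with all).

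Replicate numbers were not treated as pairs, since the deviations of same-numbered samples correlated at -0.10 to 0.19 and not all above 0.1. Between 2D and 3D_14d alone, same-numbered samples correlated at 0.19, 0.11 and 0.093, above the -0.13 to 0.040 of differently numbered ones. With the replicate block, 4 members passed upward and 1 downward in 3D_7d vs 2D, 2 and 1 in 3D_14d vs 2D, and 0 and 1 between the time points, the same counts as without it. SRXN1 had 17 to 41 counts per library, the fewest among the members.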
